A study of Mus musculus with 10 samples.

Results

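Adgra1, Adgre1, Adgre5 and Adgrg3 are 4 genes of the adhesion G protein-coupled receptor (GPCR) family, described here in mouse bone marrow-derived mast cells treated with stem cell factor (SCF) and transforming growth factor beta (TGF-β). They are 4 of the 30 family members listed for this report and 4 of the 49671 genes in the count table. They were chosen by their counts in these same libraries, with results in view, for the near absence of Adgra1 without TGF-β and its large rise with it. That contrast in Adgra1 is therefore given as a description with no test, and Adgra1 was tested only between TGF-β doses and between TGF-β with and without SCF.

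Bone marrow-derived mast cells (BMMCs) are mast cells that grow out of marrow kept in interleukin 3 (IL-3). Wild type C57BL/6 mice were the source, and the cultures had spent 6 to 8 weeks in IL-3, which is also the age that the labels give. The 6 groups were SCF plus TGF-β at 1 ng/mL (2 libraries), SCF plus TGF-β at 10 ng/mL (2 libraries), SCF alone at 100 ng/mL (2 libraries), TGF-β alone at 1 ng/mL (1 library), TGF-β alone at 10 ng/mL (1 library) and IL-3 alone (2 libraries). Stimulation with SCF or TGF-β lasted 72 h, and the sample annotation used here holds no time for IL-3 alone. All groups share the IL-3 culture, whose dose the labels give as 5 ng/mL in one field and 10 ng/mL in another. The labels give no SCF dose for the combinations. With TGF-β alone, the 1 ng/mL library is replicate 2 and the 10 ng/mL library is replicate 1. Dose without SCF therefore cannot be told apart from replicate number. Nothing in the labels says that replicates came from separate mice or cultures, so each p-value covers the spread among these libraries alone, and that spread may be technical.

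Adhesion GPCRs carry a long extracellular part joined to a membrane-spanning receptor domain, and most of them are cut at a conserved site into fragments that stay attached to each other. Ligands on other cells or in the matrix bind the outer part, and an exposed internal stretch of the receptor can then act on G proteins. Several family members are used as surface markers of leukocytes. Adgra1 (GPR123) is known mainly from the brain and lacks the domain in which the others are cut. Adgre1 encodes F4/80, the classic surface marker of mouse macrophages. Adgre5 encodes CD97, which binds CD55 and integrins and is found on most leukocytes. Adgrg3 (GPR97) is a receptor found on granulocytes and other myeloid cells.

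The count table gave between 1237382 and 2323916 reads assigned to genes per library (median 1708116), and 3 reads in a library corresponded to a level of 1.26 to 2.55 CPM. CPM is the read count scaled to library size, here after adjustment between libraries by the trimmed mean of M-values (TMM), and intervals on counts cover counting error only. All 14 mast cell markers, among them Kit, Fcer1a and Cpa3, had reads in every library, with summed levels of 56006 to 71497 CPM in the 6 libraries with TGF-β and 68289 to 96367 CPM in the 4 without. Of 20 macrophage markers, 15 had any read and C1qb, C1qc, Marco and Timd4 were among those with 0 in all libraries, while Csf1r, Cd68, Cd163, Lyz2 and Cx3cr1 had reads in every library (178, 660, 86, 155 and 5083 in all, in that order). The summed macrophage level was 229 to 240.4 CPM with SCF plus 1 ng/mL TGF-β, 277 to 294 CPM with SCF plus 10 ng/mL and 168 to 257 CPM with SCF. It was 749 and 808 CPM with TGF-β alone at 1 and 10 ng/mL, and 403 to 434 CPM in IL-3. Over all libraries together most of these reads came from Cx3cr1 (119 to 995 per library), though not in every library. The neutrophil list summed to at most 7.64 CPM in any library (9 of 14 markers with reads, S100a8 and S100a9 at 0), the neuron list to at most 25.2 CPM (9 of 12), the eosinophil list to at most 32.6 CPM (5 of 9, Epx and Prg2 at 0, Ccr3 and Il5ra with reads in every library) and the basophil list to between 456 and 702 CPM (3 of 3). Most of the basophil sum came from Cd200r3, with 10383 reads in all, against 176 for Mcpt8 and 147 for Prss34. The part of these other cell types in the results below was not tested.

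Adgra1 (ENSMUSG00000025475) lies on the plus strand at chr7:139834174-139878088 of GRCm38 and has 8 exons in its longest coding transcript. Adgrg3 (ENSMUSG00000060470) lies on the plus strand at chr8:95017692-95045250, with 12 exons. RefSeq promoter sequence for GRCm38.p6 was at hand for 2 of the 4 genes. It is shown for the 250 bases before each start so that the letters before each start can be read beside the levels. The windows are printed 5′ to 3′ on the plus strand, for Adgra1 from chr7:139833924-139834173 and for Adgrg3 from chr8:95017442-95017691. Capitals mark letters that match binding motifs of SMAD proteins, the transcription factors that TGF-β receptors activate, in either direction.
Adgra1: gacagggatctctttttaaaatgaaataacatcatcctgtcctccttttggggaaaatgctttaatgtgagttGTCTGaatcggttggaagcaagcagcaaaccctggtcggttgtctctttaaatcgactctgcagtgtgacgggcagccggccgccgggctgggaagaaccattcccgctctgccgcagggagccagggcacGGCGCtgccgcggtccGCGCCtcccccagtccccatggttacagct
Adgrg3: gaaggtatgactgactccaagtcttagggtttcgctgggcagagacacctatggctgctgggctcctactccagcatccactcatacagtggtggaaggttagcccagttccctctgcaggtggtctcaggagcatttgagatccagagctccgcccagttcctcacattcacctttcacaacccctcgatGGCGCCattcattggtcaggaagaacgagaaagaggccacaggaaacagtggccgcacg
Motifs were searched on both strands. The core SMAD letters CAGAC occurred 1 time before Adgra1, read on the opposite strand as GTCTG and beginning 177 bases before the start, and 0 times before Adgrg3. These 5 letters occur in 42.2% of the 32851 RefSeq promoter windows of the same length. The GC-rich SMAD letters GGCGC occurred 2 times before Adgra1, at 46 bases and, on the opposite strand, 30 bases before the start. Before Adgrg3 they occurred 2 times in overlapping positions, 59 and 58 bases before the start, and 32.0% of all windows hold them. The palindrome GTCTAGAC (0.167% of windows), the GATA letters GATAA (22.6%) and the E-box CACGTG (6.02%) were in neither window. A match describes letters only and is no evidence of binding.

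Adgra1 was all but absent without TGF-β and clearly present in every library with it. It had 72 and 103 reads with SCF plus 1 ng/mL TGF-β, 225 and 185 reads with SCF plus 10 ng/mL, and 0 and 1 read with SCF alone. With TGF-β alone it had 59 reads at 1 ng/mL and 96 reads at 10 ng/mL, against 0 reads in both IL-3 libraries. The 6 libraries with TGF-β and the 4 without did not overlap, which is the pattern for which the gene was picked. In bulk samples, more cells that express a gene and more RNA per cell cannot be told apart.

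In CPM, Adgra1 stood at 30.3 and 61.1 with SCF plus 1 ng/mL TGF-β, and at 100.5 in both libraries with SCF plus 10 ng/mL, against 0 and 0.630 with SCF. TGF-β alone gave 50.1 CPM at 1 ng/mL (95% exact Poisson interval 38.1 to 64.6) and 74.6 CPM at 10 ng/mL (60.4 to 91.1), against 0 CPM in IL-3, where 3 reads over the group would have been 0.894 CPM. These levels are modest beside those of Adgrg3 and Adgre5, with at most 225 reads in a library. The pooled count ratio to SCF was 154-fold for SCF plus 1 ng/mL and 360.2-fold for SCF plus 10 ng/mL. Both ratios rest on 1 read in the SCF group, so their size is hardly known, and they describe the contrast for which the gene was picked. Against the floor of 3 reads over the IL-3 group, Adgra1 was 55.98-fold higher with 1 ng/mL and 83.4-fold higher with 10 ng/mL TGF-β alone. Each ratio takes the count of 1 library as it stands, so counting error is left out and neither ratio is a lower bound.

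The order of Adgra1 levels was SCF plus 10 ng/mL TGF-β (mean 100.5 ± 0.0656 CPM, SD, n = 2), 10 ng/mL alone, 1 ng/mL alone, SCF plus 1 ng/mL (45.7 ± 21.8 CPM, SD, n = 2), SCF (0.315 ± 0.446 CPM, SD, n = 2) and IL-3. The SD with SCF plus 10 ng/mL is far below counting error, as the pooled 95% counting interval ran from 91.0 to 110.7 CPM. The 1 ng/mL library without SCF fell between the pair of libraries with SCF at that dose. The counting intervals of the libraries with 1 and 10 ng/mL alone overlapped, which is no test of their difference. Each of these doses had 1 library, and the replicate numbers differ. SCF and IL-3 had 1 and 0 reads, too few to compare.

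With SCF present, Adgra1 at 10 against 1 ng/mL TGF-β had a log2 fold change of 1.17 ± 0.26 (standard error, 95% interval 0.62 to 1.72, n = 2 each). Both libraries at the higher dose lay above both at the lower. The unadjusted p in edgeR's quasi-likelihood test was 0.000332, but the Benjamini-Hochberg adjusted p over 11247 genes was 0.9999, and the difference did not pass the threshold of 0.05. In this dose comparison 0 of the 4 members were called, where 0.0178% of all tested genes (2 genes) were called. At an unadjusted p under 0.05, Adgra1 was the only member past it. No share of all genes at that unadjusted cut is given, so this cannot be set against a background. The Adgra1 call depended on processing. The adjusted p was 0.000267 without the filter on low counts, 0.0270 without replicate 2 of SCF plus 1 ng/mL (log2 fold change 1.73) and 0.110 in limma-voom, and the log2 fold change was 0.71 without replicate 1 of SCF plus 1 ng/mL.

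Adding SCF to TGF-β did not detectably change Adgra1. Averaged over both doses, the combination of SCF and TGF-β against TGF-β alone gave a log2 fold change of 0.13 ± 0.24 (standard error, 95% interval -0.38 to 0.64, edgeR adjusted p = 0.731). The sign turned to -0.13 without replicate 2 of SCF plus 1 ng/mL, and to -0.15 without the 1 ng/mL library of TGF-β alone. The interval leaves room for a difference of either sign. Each TGF-β alone group had 1 library, and its spread was taken from the other groups.

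**Figure D1:**
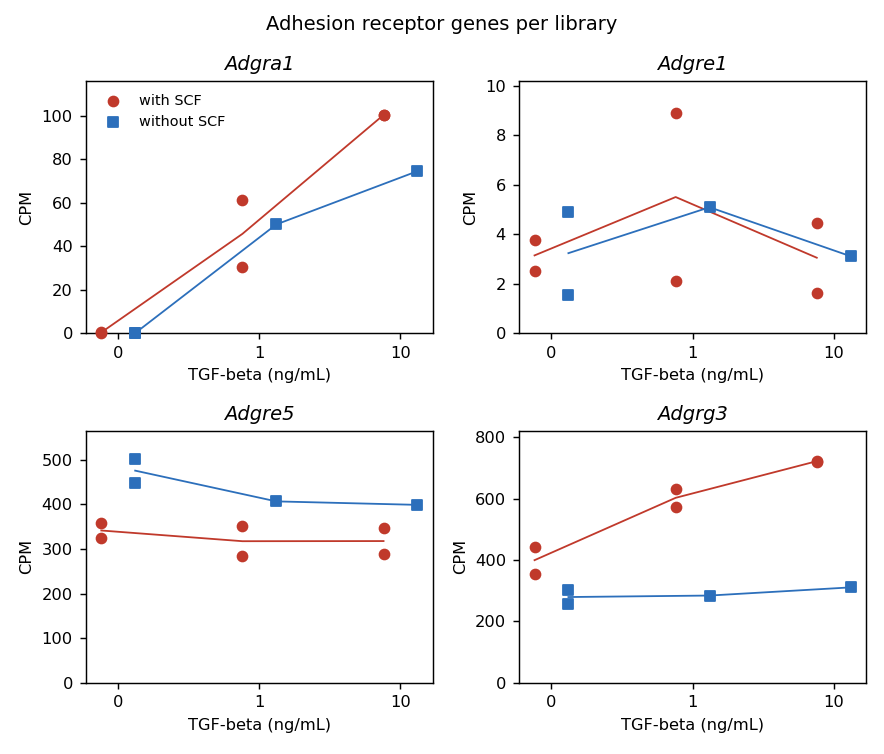
Scaled level (CPM, linear axis from 0) of each of the 4 genes against the TGF-β dose (0, 1 and 10 ng/mL, evenly spaced), with red circles for libraries with SCF and blue squares for libraries without. Each point is 1 library, lines join group means, and coinciding points hide each other for Adgra1 in IL-3 (0 and 0 CPM) and at 10 ng/mL with SCF (100.5 CPM in both). Adgra1 sits near 0 without TGF-β in both series, Adgrg3 reaches 722 CPM in the series with SCF and 311 CPM in the series without, and Adgre5 lies lower in the libraries with SCF.

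Adgrg3 was already well expressed without TGF-β, was higher with SCF, and was higher again when TGF-β was added to SCF. Its levels were 573 and 633 CPM with SCF plus TGF-β at 1 ng/mL, 721 and 723 CPM with SCF plus 10 ng/mL, and 356 and 443 CPM with SCF. TGF-β alone gave 284 CPM at 1 ng/mL and 311 CPM at 10 ng/mL, against 257 and 302 CPM in IL-3. All 4 libraries with SCF and TGF-β lay above both SCF libraries, and those lay above all 4 libraries without SCF. These levels rested on 335 to 1613 reads per library.

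SCF raised Adgrg3 by a log2 fold change of 0.52 ± 0.15 against IL-3 (edgeR adjusted p = 0.0354). It was 1 of the 3 members tested in that comparison that passed, where 9.17% of all genes did. The call was lost without replicate 1 of IL-3 (adjusted p = 0.202), without replicate 2 of IL-3 (0.0817) and without replicate 2 of SCF (0.301). Adding 1 ng/mL TGF-β to SCF raised Adgrg3 by 0.59 ± 0.14 (edgeR adjusted p = 0.0204), again 1 of 3 members tested, against 4.64% of all genes. That call was lost without replicate 1 of SCF (adjusted p = 0.233) and without replicate 2 of SCF plus 1 ng/mL (0.172). Adding 10 ng/mL raised it by 0.86 ± 0.14 (edgeR adjusted p = 0.000818), 1 of 3 members against 8.37% of all genes, and this call held with each library left out. The comparisons of the 2 doses share the SCF libraries. The difference between the doses in the presence of SCF, 0.26 ± 0.14 (95% interval -0.034 to 0.56), did not pass (edgeR adjusted p = 0.9999).

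Without SCF, no change of Adgrg3 with TGF-β was detected. TGF-β alone against IL-3, averaged over both doses, gave a log2 fold change of 0.092 ± 0.15 (95% interval -0.22 to 0.41, edgeR adjusted p = 0.828), and 0 of 3 members tested were called there, against 3.48% of all genes. In the same comparison the unadjusted p was 0.545 for Adgrg3, 0.129 for Adgre5 and 0.678 for Adgre1, so 0 of the 3 were under 0.05 before adjustment. The combination against TGF-β alone gave 1.15 ± 0.13 (edgeR adjusted p = 1.32e-05), with all 4 libraries of the combination above both libraries of TGF-β alone. That was 1 of 4 members, where 24.7% of all genes were called. The difference between the TGF-β effects with and without SCF was itself tested as an interaction, at 0.63 ± 0.19 (95% interval 0.22 to 1.04). Its unadjusted p was 0.00460 and its adjusted p 0.268 in edgeR, so it did not pass over all genes. In the interaction 0 of 3 members were called, against 0.293% of all genes, and Adgrg3 was the only member under 0.05 before adjustment. No share of all genes at the unadjusted cut is given for either comparison. The unadjusted counts in this paragraph therefore cannot be set against a background.

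In the order of Adgrg3 levels, SCF plus 10 ng/mL TGF-β came first (722 ± 1.74 CPM, SD, n = 2). That SD is below counting error, as the pooled 95% counting interval ran from 696 to 748 CPM. SCF plus 1 ng/mL (603 ± 42.4 CPM, SD, n = 2) and SCF (399.5 ± 61.6 CPM, SD, n = 2) followed, then 10 ng/mL alone, 1 ng/mL alone and IL-3 (279 ± 31.6 CPM, SD, n = 2). The libraries with 1 ng/mL alone and those in IL-3 overlapped. The library with 10 ng/mL alone, at 311 CPM, stood closer to the higher IL-3 library, at 302 CPM, than the IL-3 replicates stood to each other.

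Adgre5 (ENSMUSG00000002885) lies on the minus strand at chr8:83723251-83741326 and has 20 exons. It shares 3642 bases with Ddx39, a gene on the opposite strand. Whether reads were counted by strand is not given in the sources used here, so reads in the overlap could be left out as ambiguous or given to either gene. Ddx39 itself had mean levels of 241 to 252 CPM in all 6 groups. No promoter entry was at hand for Adgre5 or Adgre1.

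Adgre5 was expressed in all groups, and its 6 libraries with SCF stood below its 4 without. It stood at 351 and 284 CPM with SCF plus 1 ng/mL TGF-β, at 347 and 288 CPM with SCF plus 10 ng/mL, and at 358 and 324 CPM with SCF. Without SCF it stood at 406 CPM with 1 ng/mL and 399 CPM with 10 ng/mL TGF-β, against 448 and 502 CPM in IL-3. The 3 groups with SCF overlapped each other, and the libraries with 1 and 10 ng/mL alone differed by less than the replicates of any group.

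The difference of Adgre5 between SCF and IL-3 was a log2 fold change of -0.48 ± 0.15 (95% interval -0.79 to -0.16), with an edgeR adjusted p of 0.0546, just over the threshold. It passed in limma-voom (0.0434), without the filter (0.0402), with a filter at 10 CPM in 2 libraries (0.0464), in a fit of only the 2 groups (0.0450) and without replicate 1 of SCF plus 1 ng/mL TGF-β (0.0486), but not in DESeq2 (0.0818). The combination against TGF-β alone gave -0.34 ± 0.13 (95% interval -0.61 to -0.068, edgeR adjusted p = 0.0642), and passed without replicate 1 of SCF plus 1 ng/mL (0.0420) or of SCF plus 10 ng/mL (0.0473). Adding TGF-β to SCF gave -0.10 ± 0.15 at either dose (edgeR adjusted p = 0.819 for the lower dose and 0.777 for the higher), with 95% intervals from -0.42 to 0.21. TGF-β alone against IL-3 gave -0.24 ± 0.15 (95% interval -0.55 to 0.077, edgeR adjusted p = 0.484).

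Adgre1 (ENSMUSG00000004730), on the plus strand at chr17:57358691-57483527 with 22 exons, was barely detected. It had 5 and 15 reads with SCF plus 1 ng/mL TGF-β, 10 and 3 with SCF plus 10 ng/mL, and 5 and 6 with SCF. It had 6 reads with 1 ng/mL and 4 with 10 ng/mL TGF-β alone, against 3 and 7 in IL-3. The groups overlapped throughout, and levels ran from 1.55 to 8.90 CPM. Adgre1 was called in 0 of the 7 comparisons, with log2 fold changes of -0.70 to 0.72 and standard errors of 0.75 to 1.03. At this depth a change of 2-fold could not have been told from none. The pooled count ratio of SCF plus 1 ng/mL to SCF was 1.61 (95% counting interval 0.733 to 3.71). In the libraries with TGF-β alone, where the summed macrophage markers were highest, Adgre1 stood at 5.09 CPM with 1 ng/mL and 3.11 CPM with 10 ng/mL. Its mean was 3.23 CPM in IL-3, 3.14 CPM with SCF, and 5.50 and 3.05 CPM with SCF plus 1 or 10 ng/mL. A link between Adgre1 and these markers was not tested.

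**Figure D2:**
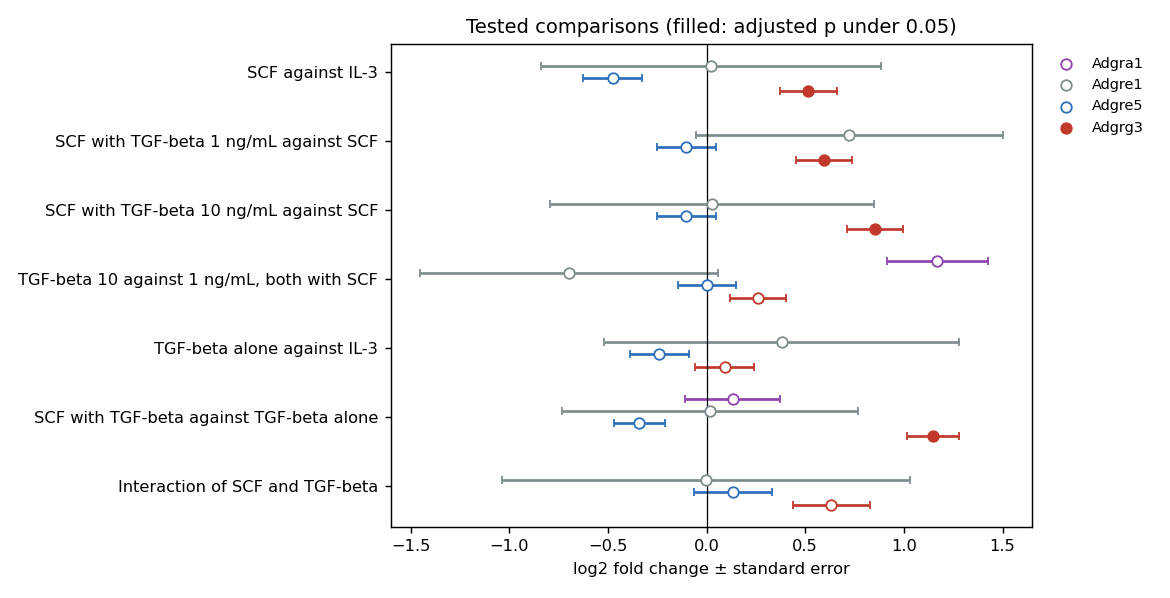
Log2 fold change (horizontal axis, ± standard error) of each gene in each tested comparison (vertical axis), with filled circles for an edgeR adjusted p under 0.05. Adgrg3 is filled in 4 of the 7 comparisons and reaches 1.15, the other genes are open throughout, and Adgra1 is shown only in the comparisons that did not choose it.

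Per kilobase of the longest coding transcript, Adgrg3 stood at 105 to 297 CPM per kb over the 10 libraries and Adgre5 at 94.6 to 167 CPM per kb. Adgra1 stood at 6.37 to 21.1 CPM per kb in the libraries with TGF-β, and Adgre1 at 0.480 to 2.75 CPM per kb in all. The members therefore fell into a pair of well expressed receptors, 1 receptor seen with TGF-β and 1 at the edge of detection. Across the 10 libraries, log2 CPM of Adgrg3 and Adgre5 ran in opposite directions (Pearson r = -0.83), and Adgra1 went with Adgrg3 at r = 0.58. These are descriptions over libraries that share treatments, not tests.

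Of the 30 family genes listed, 24 had any read, 6 had 0 reads in all libraries and 9 passed the filter on low counts. Leaving out Adgra1, which passed because of the libraries with TGF-β, 8 were tested. In SCF against IL-3, 1 rose (Adgrg3) and 0 fell, where 5.71% of all genes rose. With SCF, 2 rose at 1 ng/mL TGF-β and the same 2 at 10 ng/mL (Adgrg1 and Adgrg3), where 1.89% and 3.78% of all genes rose, and 0 fell. In the combination against TGF-β alone, 2 rose (Adgrg3 and Adgrg7), where 13.3% of all genes did. The median log2 fold change of the 8 with SCF present was 0.25 at 1 ng/mL and 0.11 at 10 ng/mL, 0.24 for TGF-β alone and -0.15 for the combination against TGF-β alone, beside medians over all tested genes of -0.024 to 0.0062.

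Adgrg1 (GPR56), a receptor for collagen and transglutaminase 2, lies just upstream of Adgrg3 on chromosome 8. It had 173 and 109 CPM with SCF plus TGF-β at 1 ng/mL, 192 and 141 CPM with SCF plus 10 ng/mL, and 77.1 and 59.9 CPM with SCF. TGF-β alone gave 143 CPM at 1 ng/mL and 259 CPM at 10 ng/mL, against 145 and 64.6 CPM in IL-3. Both groups with SCF and TGF-β lay above SCF, while the IL-3 replicates were far apart. In every group with 2 libraries, replicate 1 stood above replicate 2. The 10 ng/mL library alone is replicate 1 and the 1 ng/mL library alone is replicate 2. Their difference cannot be told apart from one of replicate number. Adgrg1 rose with TGF-β added to SCF by a log2 fold change of 1.05 ± 0.29 at 1 ng/mL (edgeR adjusted p = 0.0479) and 1.28 ± 0.29 at 10 ng/mL (0.00957). The first call was lost without replicate 1 of SCF (0.111), replicate 2 of SCF (0.252), replicate 1 of SCF plus 1 ng/mL (0.352), the 1 ng/mL library alone (0.0533) or the 10 ng/mL library alone (0.0507), with a filter at 10 CPM in 2 libraries (0.0570), in limma-voom (0.0578) and in DESeq2 (0.479). The call at 10 ng/mL was lost without replicate 2 of SCF (0.0897) or replicate 1 of SCF plus 10 ng/mL (0.113), and in DESeq2 (0.158).

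Adgrg7 (GPR128), an orphan receptor described mainly in the gut, had 16.8 and 23.7 CPM with SCF plus TGF-β at 1 ng/mL and 25.5 and 34.2 CPM with SCF plus 10 ng/mL. It had 12.7 CPM with 1 ng/mL and 6.22 CPM with 10 ng/mL TGF-β alone, against 12.6 to 13.5 CPM in IL-3. SCF without TGF-β gave 24.0 to 27.7 CPM, within the range of the combination. SCF against IL-3 gave a log2 fold change of 0.97 ± 0.31, just over the threshold (edgeR adjusted p = 0.0564). The combination lay above TGF-β alone in all 4 libraries, with a log2 fold change of 1.44 ± 0.32 (edgeR adjusted p = 0.00343). The call was lost without the 10 ng/mL library alone, at a log2 fold change of 0.93. That fit set both doses of the combination against 1 ng/mL alone.

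**Figure D3:**
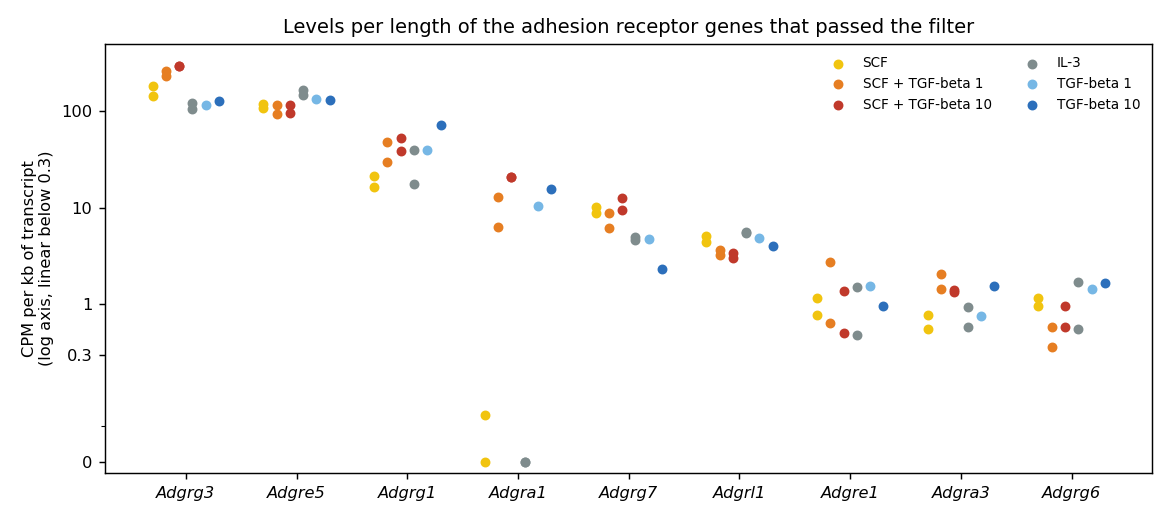
Level per kilobase of transcript (vertical, log axis that is linear below 0.3) of the 9 adhesion receptor genes that passed the filter, ordered by mean level, with 1 point per library coloured by group. Adgrg3 and Adgre5 lie highest, Adgra1 drops to between 0 and 0.132 CPM per kb without TGF-β, and the other receptors lack such a gap.

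Ligands and partners were looked up from a list of 29 genes, of which 9 passed the filter. CD55, the complement regulator that binds CD97, was measured beside its receptor Adgre5. Cd55 had 513 and 417 CPM with SCF plus TGF-β at 1 ng/mL, 406 and 396 CPM with SCF plus 10 ng/mL, and 726 and 641 CPM with SCF. TGF-β alone gave 437 CPM at 1 ng/mL and 507 CPM at 10 ng/mL, against 781 and 848 CPM in IL-3. All 6 libraries with TGF-β lay below all 4 without it, while the receptor Adgre5 showed no such split. Cd55 fell by 0.55 ± 0.14 on the log2 scale at 1 ng/mL with SCF (edgeR adjusted p = 0.0248), by 0.77 ± 0.14 at 10 ng/mL with SCF (0.00148) and by 0.79 ± 0.14 with TGF-β alone against IL-3 (0.00279). The call at 1 ng/mL was lost without replicate 1 of SCF (0.194), without replicate 2 of SCF plus 1 ng/mL (0.312) and in a fit of only the 2 groups (0.0572). The call for TGF-β alone was lost without the 1 ng/mL library (0.0514).

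Of the 9 tested partner genes, 1 rose (Itgb1) and 3 fell (Prnp, Cd81 and Tgm2) in SCF against IL-3, where 9.17% of all genes were called in either direction. In the combination against TGF-β alone, 3 rose and 2 fell, where 24.7% of all genes were called. With TGF-β added to SCF, 0 rose and 1 fell at 1 ng/mL (4.64% of all genes called), and 1 rose and 1 fell at 10 ng/mL (8.37%). TGF-β alone raised 1 and lowered 1 (3.48%). Itgb1, the integrin beta chain that pairs with Itga5 in a receptor bound by CD97, was higher with SCF and TGF-β than with TGF-β alone by 1.13 ± 0.19 (edgeR adjusted p = 0.000341). Prnp, whose product the prion protein binds Adgrg6, was lower in that comparison by a log2 fold change of -1.33 ± 0.20 (edgeR adjusted p = 0.000169), and lower in SCF than in IL-3 (-1.92 ± 0.25, edgeR adjusted p = 0.000165). Cd81, a tetraspanin that associates with Adgrg1, rose with TGF-β alone by 1.52 ± 0.23 (edgeR adjusted p = 0.000724) and was lower by -1.71 ± 0.19 with SCF and TGF-β than with TGF-β alone (9.25e-06). Its mean level was 128 ± 21.4 CPM with SCF plus 1 ng/mL and 121 ± 1.32 CPM with SCF plus 10 ng/mL (SD, n = 2 each), against 376 and 444 CPM with 1 and 10 ng/mL alone. The calls for Itgb1 and Cd81 in the combination, for Cd81 with TGF-β alone and for Prnp in the combination and in SCF against IL-3 held with each library left out. In the combination, the call for Itga5 was lost without the 1 ng/mL library alone, and that for Cd9 without the 10 ng/mL library alone. Those fits set both doses of the combination against a single dose alone. In SCF against IL-3, the call for Itgb1 (edgeR adjusted p = 0.0220) was lost without replicate 1 of IL-3 (0.103), replicate 2 of IL-3 (0.122) or replicate 1 of SCF (0.149), and in DESeq2 (0.0834). The calls there for Cd81 and Tgm2 were lost without replicate 1 of IL-3 (0.344 for Cd81 and 0.121 for Tgm2), without replicate 2 of SCF (0.329 and 0.126) and in DESeq2 (0.181 and 0.108). Prnp also rose with 10 ng/mL TGF-β added to SCF, by 0.95 ± 0.25 (edgeR adjusted p = 0.0225), a call lost without replicate 2 of SCF (0.218) or replicate 1 of SCF plus 10 ng/mL (0.335) and in DESeq2 (0.318). The list's median log2 fold change with SCF present was 0.10 at 1 ng/mL and 0.071 at 10 ng/mL, and -0.13 for TGF-β alone.

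**Figure D4:**
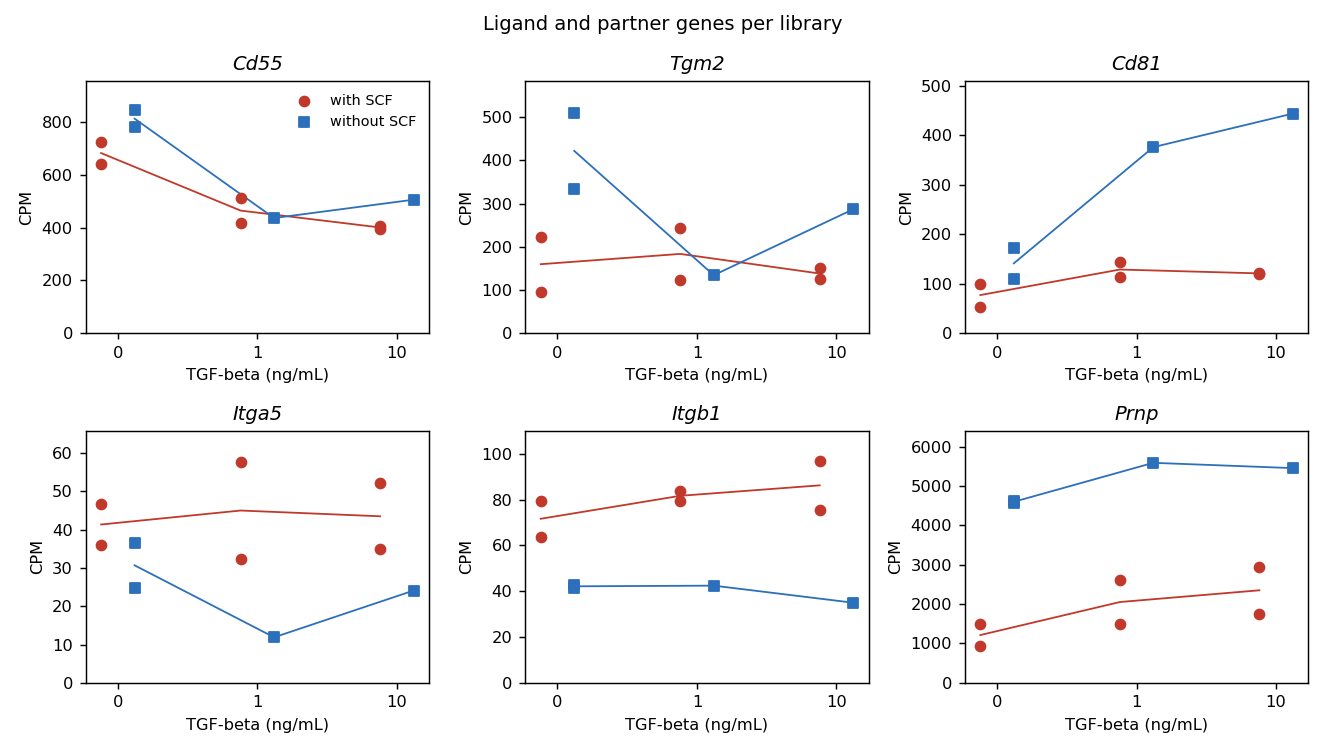
Scaled level (CPM, linear axis from 0) of 6 ligand and partner genes against the TGF-β dose (0, 1 and 10 ng/mL, evenly spaced), with red circles for libraries with SCF and blue squares for libraries without; each point is 1 library and lines join group means. Cd55 lies lower with TGF-β in both series, Cd81 reaches 444 CPM with TGF-β alone, and Itgb1 and Prnp separate the libraries with SCF from those without.

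Downstream of such receptors, 30 G protein, arrestin and related signalling genes were listed and 25 passed the filter. At 1 ng/mL with SCF, where 4.64% of all genes were called, 0 rose and 1 fell, the arrestin gene Arrb1 (-0.71 ± 0.20, edgeR adjusted p = 0.0447). This call was lost without replicate 1 of SCF (0.110), replicate 2 of SCF (0.209), replicate 1 of SCF plus 1 ng/mL (0.163) or replicate 2 of SCF plus 1 ng/mL (0.202), in limma-voom (0.0504) and in DESeq2 (0.263). At 10 ng/mL with SCF, where 8.37% of all genes were called, 0 of the 25 were called in edgeR, DESeq2 or limma-voom, with an unadjusted edgeR p under 0.05 for 2 higher and 6 lower genes. For TGF-β alone, where 3.48% of all genes were called, 0 were called by any of these tools. There, an unadjusted edgeR p under 0.05 was found for 0 higher genes and 1 lower gene. The shares of 8.37% and 3.48% hold at the adjusted threshold. No share of all genes at the unadjusted cut is given, so the unadjusted counts cannot be set against a background. In SCF against IL-3, 2 rose (Gna14 and Gnas) and 0 fell, where 9.17% of all genes were called, and both calls were lost without replicate 2 of IL-3 (edgeR adjusted p = 0.0749 for Gna14 and 0.0575 for Gnas), that of Gna14 also without replicate 2 of SCF (0.107). In the combination against TGF-β alone, 5 rose and 4 fell, where 24.7% of all genes were called, among them Gna15, a G protein alpha subunit of blood cells (1.47 ± 0.22, edgeR adjusted p = 0.000131), Gnas, the alpha subunit that stimulates adenylate cyclase (0.80 ± 0.15, 0.000828), and Ric8a, a chaperone of G protein alpha subunits (-0.67 ± 0.14, 0.00214). These 3 calls held with each library left out. Those of Arrb1, Gna11 and Gna14 in the same comparison were among the calls lost, at adjusted p-values of up to 0.234, 0.265 and 0.145 in that order.

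Some genes had levels that followed those of a member closely across the 10 libraries. Among 7076 expressed protein-coding genes, the Pearson correlations of log2 CPM with Adgra1 were highest for Apol9b (0.987), Sash3 (0.985), Med10 (0.980), Papolg (0.977) and Mcpt2 (0.974). Mcpt2, a protease of mucosal mast cells, averaged 3327 CPM with SCF plus TGF-β at 1 ng/mL and 5384 CPM with SCF plus 10 ng/mL, against 21.2 CPM with SCF. It stood at 604 CPM with 1 ng/mL and 3979 CPM with 10 ng/mL alone, against 11.6 CPM in IL-3. Apol9b was also near 0 without TGF-β, at 16.1 and 24.8 CPM with SCF plus 1 or 10 ng/mL against 0 CPM with SCF. For Adgrg3 they included Paqr4 (0.982), Nap1l1 (0.978), Mcm6 (0.978) and Col18a1 (0.975). For Adgre5 they were St8sia4 (0.967), Ier3 (0.963), Dennd4a (0.958), Rnf128 (0.955) and Arid5b (0.951). For Adgre1, with its few reads, they were Med15, Mettl2, Tubgcp6, Csnk2a1 and Adh5, at 0.769 to 0.865. With many genes and groups that share treatments, such correlations are a ranking, and no p is given.

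No neighbour of Adgra1 within 200 kb went from near absence to clear presence with TGF-β. Tubgcp2 averaged 69.0 and 76.6 CPM with SCF plus 1 or 10 ng/mL against 53.8 CPM with SCF. It stood at 78.9 and 80.0 CPM with 1 and 10 ng/mL alone against 50.4 CPM in IL-3. Zfp511 stood at 25.5 and 21.8 CPM alone against 12.8 CPM in IL-3, and with SCF at 24.1 and 18.1 CPM against 19.3 CPM. Neither was called with TGF-β alone (edgeR adjusted p = 0.113 and 0.149) or at either dose with SCF. Kndc1, the next gene downstream, had 0 reads in all 6 libraries with TGF-β and 5 reads in all in the 4 without, and Utf1 had 0 reads throughout. Adam8, a membrane protease of leukocytes, averaged 84.3 CPM with SCF plus TGF-β at 1 ng/mL and 82.1 CPM with SCF plus 10 ng/mL, against 150.5 CPM with SCF. It stood at 20.4 CPM with 1 ng/mL and 13.2 CPM with 10 ng/mL alone, against 28.6 CPM in IL-3. Around Adgrg3, the family member Adgrg5 had 0 reads in all libraries. Kifc3, a kinesin gene, averaged 22.1 and 28.6 CPM with SCF plus 1 or 10 ng/mL against 3.01 CPM with SCF, and stood at 14.4 and 11.7 CPM with 1 and 10 ng/mL alone against 3.49 CPM in IL-3.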

How the data were processed

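The authors deposited a table of read counts for each gene in 10 bulk SmartSeq2 libraries, made per the labels' protocols with Nextera XT and read in pairs on a NextSeq500, with no molecular identifiers named. The authors worked on GRCm38 with STAR, HTSeq and DESeq2, per the submitters' processing notes. Not given in the sources used here were versions, annotation release and strand setting. Besides genes, the table held 5 rows naming no gene, left out of library sizes and tests. Reads not uniquely aligned made up 37.2% to 55.6% of all entries, reads without a feature 26.0% to 33.6% and ambiguous reads 2.04% to 2.85%, and 16.4% to 26.6% were assigned to genes. The 55.6% and the 16.4% both belong to the library with 1 ng/mL TGF-β alone. Both libraries of TGF-β alone had the fewest reads assigned to genes (1295048 at 1 ng/mL and 1237382 at 10 ng/mL).

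Counts were fitted in R 4.3.3 with edgeR 4.0.16 (TMM, filterByExpr with a minimum count of 10, quasi-likelihood F test) with 1 mean for each of 6 groups, 4 residual degrees of freedom and a common biological coefficient of variation of 0.126. The filter kept 11247 genes, and p-values were adjusted by Benjamini-Hochberg within each of 7 comparisons at a threshold of 0.05. TGF-β alone and SCF with TGF-β are means over both doses, and the interaction is the TGF-β effect with SCF minus that without. Where a library of TGF-β alone was left out, that side held only the other dose. The combination still averaged both doses in such fits. The standard error is the log2 fold change divided by the square root of F. Alternatives were DESeq2 size factors, DESeq2 1.42.0, limma-voom (3.58.1), no filter, 10 CPM in 2 libraries, only the groups compared, a replicate block and each library left out. The code was tested on simulated data. Loci came from GENCODE on GRCm38. The members and lists were chosen with earlier results of these data known. Named genes are the members, called genes of the family, partner and G protein lists, and the 5 genes best correlated with each member (mean of at least 20 CPM in 1 group, prior count of 2). The neighbours within 200 kb and the markers were looked up besides. Some genes that these rules name are not reported here. Replicate libraries differed by more than counting noise (chi-square per gene 3.43 to 4.51).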

Additional observations from a re-analysis of the deposited data

How the results depend on the processing

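Apart from fits that left out a library, the 4 Adgrg3 calls (SCF against IL-3, either TGF-β dose with SCF against SCF, and the combination against TGF-β alone) kept their direction and their side of the threshold under every alternative. The cause of the changes below was not tested. Adgre5 in SCF against IL-3 came under the threshold at log2 fold changes of -0.471 in limma-voom, -0.459 without the filter, -0.488 with 10 CPM in 2 libraries and -0.486 in a fit of the groups compared. Its near-zero dose difference turned positive with DESeq2 size factors (0.00555), in DESeq2 (0.00574) and at 10 CPM (0.00821). Adgra1 passed in the dose comparison without the filter, at 1.17, and its difference in mean level between SCF plus 10 ng/mL and SCF was 100.7 CPM with DESeq2 size factors. Adgre1, at few reads, changed sign in the interaction with DESeq2 size factors (0.00226) and without the filter (0.0139), and in limma-voom at 10 ng/mL with SCF (-0.0742) and for the combination against TGF-β alone (-0.300). DESeq2 gave no adjusted p for Adgre1 in 6 comparisons. Other family genes called in SCF against IL-3 numbered 2 in limma-voom, at 10 CPM and in the groups compared, and 3 without the filter, against 1. At 1 ng/mL with SCF they numbered 1 in DESeq2, limma-voom and at 10 CPM, and at 10 ng/mL with SCF 1 in DESeq2, against 2 each. For TGF-β alone they numbered 1 without the filter and in the groups compared, against 0. Same-numbered replicates deviated together among the SCF groups (r of 0.197 to 0.231) but not with IL-3 (-0.0033 to 0.022). The labels do not say what a replicate number marks, so whether the numbers pair the libraries is not known. Under a replicate block, Adgre5 passed in SCF against IL-3 (-0.480) and in the combination against TGF-β alone (-0.345), and its dose difference was 0.000583. Adgra1 passed in the dose comparison (1.21) and Adgrg3 in the interaction (0.637, edgeR adjusted p = 0.0366). The block called 4 other family genes in SCF against IL-3, 1 for TGF-β alone and 1 in the interaction. With each library left out in turn, Adgrg3 ran from 0.360 to 0.668 for SCF against IL-3, 0.442 to 0.761 at 1 ng/mL with SCF and -0.0306 to 0.191 for TGF-β alone. Adgra1 ran from 0.707 to 1.73 for dose and from -0.155 to 0.420 for the combination against TGF-β alone. Adgra1 in SCF plus 10 ng/mL minus SCF ran from 99.8 to 101.0 CPM, in SCF plus 1 ng/mL minus SCF from 29.9 to 61.2 CPM and in TGF-β alone minus IL-3 from 49.8 to 75.4 CPM. Adgre5 ran from -0.556 to -0.394 for SCF against IL-3, -0.254 to 0.0403 at 1 ng/mL and -0.243 to 0.0217 at 10 ng/mL with SCF, -0.140 to 0.154 for dose and -0.410 to -0.254 for the combination against TGF-β alone. Adgre1 ran from -0.658 to 0.957 for SCF against IL-3, -0.892 to 0.523 at 10 ng/mL with SCF, -0.307 to 1.30 for TGF-β alone, -0.442 to 0.426 for the combination against TGF-β alone and -0.925 to 0.688 in the interaction. Other family genes called ran from 0 to 2 for SCF against IL-3 and at 1 ng/mL, 1 to 2 at 10 ng/mL, 0 to 1 for TGF-β alone and 1 to 3 for the combination against TGF-β alone. Of all genes, 1031 were called in SCF against IL-3 (237 to 1483 over the alternatives), 522 at 1 ng/mL (252 to 859), 941 at 10 ng/mL (438 to 1354), 2 for dose (0 to 8), 391 for TGF-β alone (143 to 718), 2780 for the combination against TGF-β alone (1278 to 3282) and 33 in the interaction (0 to 125).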
